A study of Mus musculus with 4 samples.

Results

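miR-210-3p is the main arm of the mouse Mir210 hairpin. It was taken by name from the series table and is 1 of 1078 mature miRNAs listed there, with 1 entry and 1 hairpin. It was chosen with its deposited levels in these 4 libraries already known, so those levels are given as a description, with no test. Small RNA was sequenced from 4 cell populations of C57BL/6J mice, with 1 library per population and no replicates, and the design asks how the miRNA set differs between them. The HSC library was made from bone marrow haematopoietic stem cells, gated as c-Kit+ Sca1+ Lineage- with a stated purity above 95%. The imDC library was made from immature dendritic cells, obtained by growing bone marrow progenitors of mice aged 5 to 6 weeks until day 6 in GM-CSF (10 ng/mL) and IL-4 (1 ng/mL). For the mature cells of the maDC library, the same culture received LPS at 10 ng/mL from day 4, and CD11c beads were used to select cells on day 8. For the DCreg library of regulatory dendritic cells, such mature cells spent 7 days or more on stromal cells of the spleen, described as endothelial-like, were lifted off with trypsin and passed through CD11c beads a further time. No bead selection is stated for imDC, and the sources used here do not give the number of mice behind each library. LPS exposure, days of culture, bead selection and library preparation therefore cannot be told apart between these libraries.

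A miRNA is cut from a hairpin transcript, and 1 arm of the hairpin is usually kept in an Argonaute protein, where bases 2 to 8 (the seed) pair with target messenger RNAs. miR-210-3p is known as a miRNA induced by low oxygen in many cell types: hypoxia-inducible factor activates its gene, and its known targets include iron-sulphur cluster assembly proteins of the mitochondria. In macrophages and dendritic cells the same factor is also stabilised by inflammatory signals such as LPS. No oxygen level is given for these cultures and no messenger RNA was measured, so the data bear on the miRNA alone.

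The 2 mature arms and the hairpin are shown because the results turn on which arm was read and on where the reads end. The sequences are those of RefSeq on GRCm38.p6, and both mature sequences matched the series table. Capitals mark the seed in the mature sequences and the mature arms in the hairpin.
miR-210-3p: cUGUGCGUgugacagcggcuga
miR-210-5p: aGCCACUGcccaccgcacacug
Mir210 hairpin: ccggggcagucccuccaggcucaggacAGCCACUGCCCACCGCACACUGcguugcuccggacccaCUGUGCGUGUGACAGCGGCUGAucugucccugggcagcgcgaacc
The hairpin of 110 nt lies on the minus strand of chromosome 7, from 141221384 to 141221493 (chr7:141221384-141221493), and miR-210-3p itself from 141221407 to 141221428. In GENCODE M21 no exon or gene other than Mir210 overlaps it. Its nearest annotated gene is Rassf7, 2726 nt away on the plus strand, followed by Phrf1 at 7291 nt and Lmntd2 at 7304 nt. No other listed miRNA has its seed, and in the recount described below none of its reads was divided with another miRNA. miR-210-3p has a GC content of 63.6%, against a median of 50% over all listed miRNAs.

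The miRNA was far scarcer in HSC than in any dendritic cell library. By the deposited values its level, in parts per 1000000 of the library's miRNA total (ppm), was 150 ppm in HSC against 4955 ppm in imDC, 2630 ppm in maDC and 2410 ppm in DCreg. These came from deposited scores of 635, 26019, 11769 and 6569. HSC stood apart at the bottom, imDC stood highest, and the maDC and DCreg values lay next to each other. Among the 1078 miRNAs it ranked 141 in HSC against 33 in imDC, 30 in maDC and 29 in DCreg. Its neighbours in rank were miR-425-3p above and miR-296-3p below in HSC, and miR-26b-5p and miR-93-5p in imDC. In maDC they were miR-340-5p and miR-744-5p, and in DCreg miR-99b-5p and miR-26a-5p.

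Recounting the deposited unique sequences again placed HSC lowest and gave a steeper step between imDC and the other 2 dendritic cell libraries. The recount found 365 reads of miR-210-3p in HSC against 15370 in imDC, 5442 in maDC and 4163 in DCreg. As a share of recounted miRNA reads, these were 70.2 ppm in HSC (exact Clopper-Pearson 95% interval 63.2 to 77.8), 2917 in imDC (2871 to 2964), 985 in maDC (959 to 1012) and 1059 in DCreg (1027 to 1091). All intervals here cover counting error only, since PCR-amplified reads that carry no molecular identifier do not count separate molecules. The deposited score exceeded the reads found, with 1.74 units per read in HSC against 1.69 in imDC, 2.16 in maDC and 1.58 in DCreg. Over the miRNAs with at least 100 reads the median was 1.41, 1.32, 1.36 and 1.21 units per read in the same order. The summed scores held only 0.813, 0.997, 0.810 and 0.693 units per recounted read, so some miRNAs had fewer units than reads. The authors' normalisation of the scores was not given in the sources used here.

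**Figure D1:**
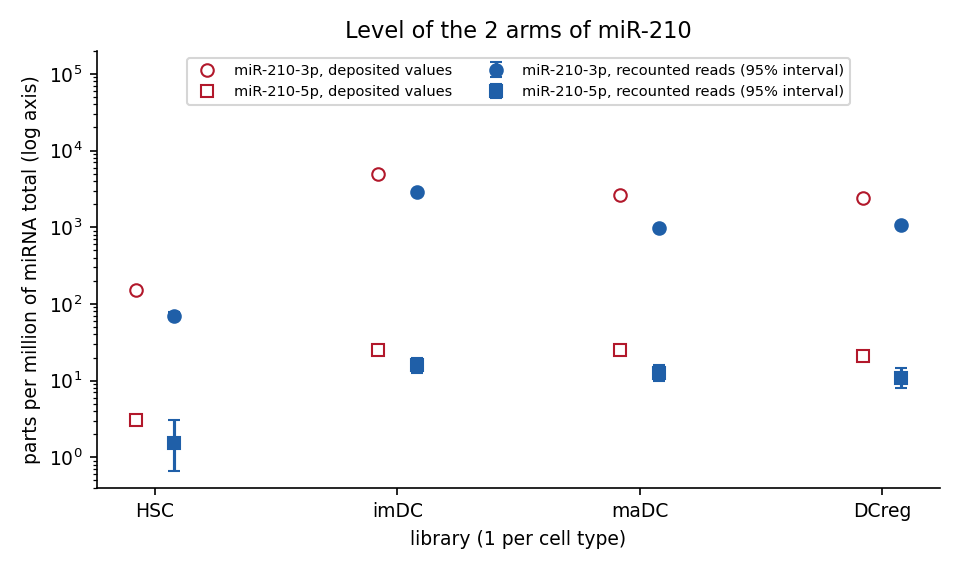
Level of both arms of miR-210 in each of the 4 libraries, in ppm of the library's miRNA total on a log axis; open symbols are deposited values, filled symbols recounted reads with exact 95% counting intervals. Circles are miR-210-3p and squares miR-210-5p, and both arms are lowest in HSC, at 150 and 3.08 ppm of the deposited values.

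Against HSC, the imDC library held 33.0-fold more miR-210-3p by deposited values, on the plain ratio scale, and 41.5-fold more by recounted reads (95% interval 37.4 to 46.2). Only 4 of the 187 miRNAs with at least 100 ppm in either library had a larger log2 ratio, and 26.2% of the 187 were at least 2-fold higher in imDC. By recount 4 of 147 had a larger ratio and 37.4% were at least 2-fold higher. maDC held 17.5-fold more than HSC by deposited values and 14.0-fold more by recount (12.6 to 15.6), where 21.7% of 180 miRNAs by deposited values and 21.4% of 131 by recount were at least 2-fold higher. DCreg held 16-fold more by deposited values and 15.1-fold more by recount (13.5 to 16.8), where 19.4% of 175 and 17.6% of 131 were. In these 2 comparisons 11 and 5 miRNAs had a larger deposited ratio. The 3 comparisons share the HSC library, and the choice of miR-210-3p was made knowing the first ratio. Each has no replicate check.

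Within the dendritic cell libraries the size of the difference depended on the values used. Against imDC, the level in maDC was 1.88-fold lower by deposited values, under the 2-fold needed for a call, and 2.96-fold lower by recount (2.87 to 3.05). A fall of 2-fold or more was common in that comparison, at 45% of 160 miRNAs by deposited values and 59.1% of 132 by recount, so the difference of miR-210-3p lay near the background. Its log2 ratio of -0.91 lay beside the median of -0.88 over all 160. Against imDC, DCreg was 2.06-fold lower by deposited values and 2.76-fold lower by recount (2.66 to 2.85), where 56% of 168 miRNAs and, by recount, 65.7% of 137 were at least 2-fold lower. Between DCreg and maDC the values were 1.09-fold lower by deposited values and 1.07-fold higher by recount (1.03 to 1.12 by counting error), so the sign was not settled. In that comparison 28.3% of 138 miRNAs were at least 2-fold lower and 20.3% at least 2-fold higher. The order was therefore HSC lowest, then maDC and DCreg without a stable order between them, then imDC.

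The reads of miR-210-3p had different 3' ends in the 4 libraries. The forms below are shown because they carry most of the reads and part the libraries. Each is a read sequence as deposited, and capitals mark the bases after the 17th and, in the last form, also the extra base at the 5' end.
annotated form, 22 nt: ctgtgcgtgtgacagcgGCTGA
form ending at base 20: ctgtgcgtgtgacagcgGCT
form ending at base 18: ctgtgcgtgtgacagcgG
form ending at base 17: ctgtgcgtgtgacagcg
annotated form plus A: ctgtgcgtgtgacagcgGCTGAA
annotated form plus T: ctgtgcgtgtgacagcgGCTGAT
form starting 1 nt earlier and ending at base 20: ActgtgcgtgtgacagcgGCT
The annotated 22 nt form made up 16.2% of miR-210-3p reads in HSC against 24.6% in imDC, 64.8% in maDC and 57.1% in DCreg. The form ending at base 20 made up 38.9%, 31.3%, 4.13% and 6.05% in the same order. It was the commonest form in HSC and imDC, with 142 and 4814 reads, whereas the annotated form was the commonest in maDC and DCreg, with 3527 and 2375 reads. The form ending at base 17 held 16.2% of HSC and 14.4% of imDC reads, against 0.662% of maDC and 1.73% of DCreg reads. As a share of miR-210-3p reads, the shorter forms were thus frequent in HSC and imDC, and maDC and DCreg held mostly the annotated form. By level this did not hold for HSC. The form ending at base 20 stood at 27.3 ppm of recounted reads in HSC against 914 in imDC, 40.7 in maDC and 64.1 in DCreg.

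Reads were grouped by where they ended on the mature sequence, calling a read short when it stopped 2 nt or more before the annotated end without any other base. Short reads were 274 of 365 in HSC (75.1%, 95% interval 70.3 to 79.4), 9562 of 15370 in imDC (62.2%, 61.4 to 63.0), 331 of 5442 in maDC (6.08%, 5.46 to 6.75) and 417 of 4163 in DCreg (10.0%, 9.12 to 11.0). The counting intervals of HSC and imDC lay far above those of maDC and DCreg. Ends were not spread evenly: base 21 was the last base of 2 HSC, 7 imDC, 0 maDC and 3 DCreg reads, while base 20 was the last base of 154, 5115, 231 and 260. For the count of 0 in maDC the exact interval reaches 0.0678% of 5442 reads. Forms ending before base 16 could not be seen, because a match of at least 16 nt was required. The median read length was 20 nt in HSC and imDC and 22 nt in maDC and DCreg.

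**Figure D2:**
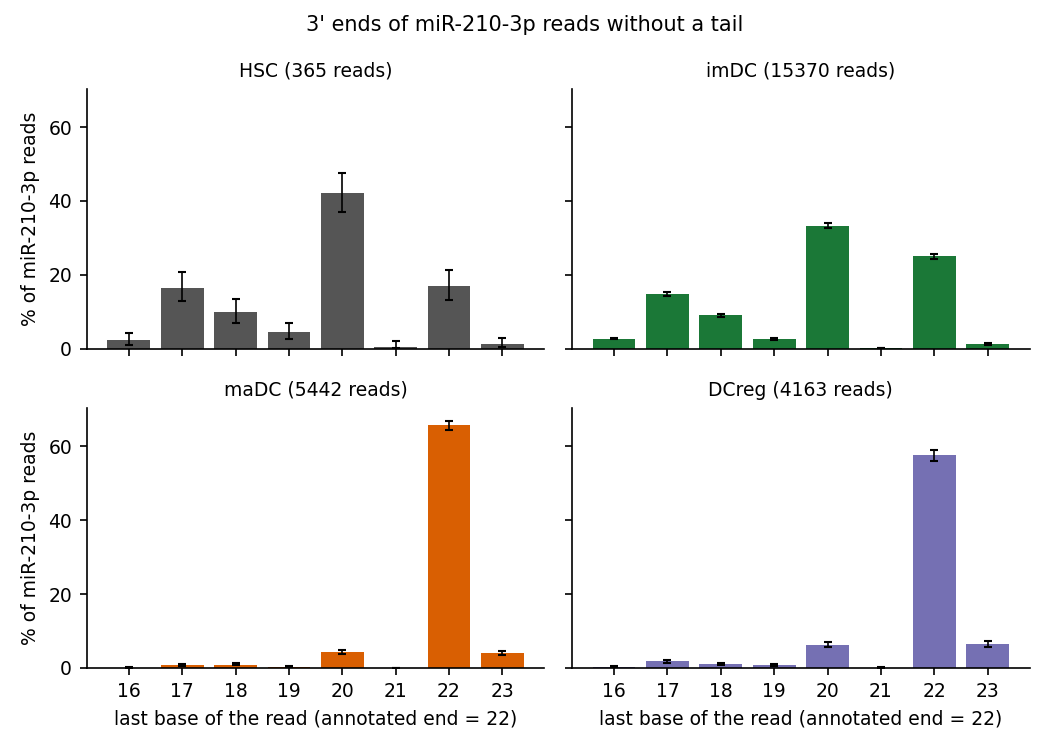
Percent of miR-210-3p reads (vertical axis) by the last base matched to the mature sequence (horizontal axis, 22 being the annotated end), for reads without untemplated bases, 1 panel per library with exact 95% counting intervals. Base 20 is the highest bar in HSC and imDC, and base 22 in maDC and DCreg.

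The split by 3' end altered the comparison among the dendritic cell libraries. Reads that reached the annotated end, tailed ones included, stood at 15.6 ppm of recounted reads in HSC (81 reads, interval 12.4 to 19.4), 1035 in imDC (1008 to 1063), 899 in maDC (874 to 925) and 908 in DCreg (879 to 939). Short reads stood at 52.7 ppm in HSC (46.7 to 59.3), 1815 in imDC (1779 to 1852), 59.9 in maDC (53.6 to 66.7) and 106 in DCreg (96.1 to 117). The reads with the annotated end were thus at similar levels in the 3 dendritic cell libraries, and the short reads were highest in imDC. Counting only reads that reached the annotated end, imDC held 1.15-fold more than maDC (1.11 to 1.20) and 1.14-fold more than DCreg (1.09 to 1.19). With such reads of all miRNAs as the total they were 1.29-fold (1.24 to 1.34) and 1.17-fold (1.13 to 1.22). For short reads these ratios were 30.3-fold (27.1 to 33.9) and 17.1-fold (15.5 to 18.9) with all recounted reads as the total. With the short reads of all miRNAs as the total they were 8.81-fold (7.89 to 9.86) and 8.33-fold (7.55 to 9.21). Of the recounted difference of 1932 ppm between imDC and maDC, 90.8% lay in short reads and 7.03% in reads with the annotated end. Other miRNAs mostly fell further in reads with the annotated end, taking all recounted reads as the total. Their median log2 ratio to imDC was -1.08 in maDC and -1.90 in DCreg, against -0.20 and -0.19 for miR-210-3p. At least 2-fold lower than in imDC were 68 of 132 miRNAs in maDC and 94 of 137 in DCreg.

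Against HSC the split acted in the other direction. imDC held 66.4-fold more reads with the annotated end (53.3 to 83.8), maDC 57.7-fold more (46.3 to 72.8) and DCreg 58.3-fold more (46.8 to 73.6). Short reads were 34.4-fold more abundant in imDC than in HSC (30.5 to 39.0), 1.14-fold in maDC (0.966 to 1.34) and 2.01-fold in DCreg (1.72 to 2.35). These ratios have all recounted reads as the total. With reads of the same kind as the total, the ratios for reads with the annotated end were 66.4-, 51.3- and 56.6-fold. Those for short reads were then 28.5-fold in imDC (25.3 to 32.3), 3.24-fold in maDC (2.75 to 3.82) and 3.43-fold in DCreg (2.94 to 4.01). The ratios to HSC were thus larger for reads with the annotated end than for short reads under both totals, while the size of the short-read ratio in maDC and DCreg depended on the total. This split was chosen after the read ends had been seen.

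**Figure D3:**
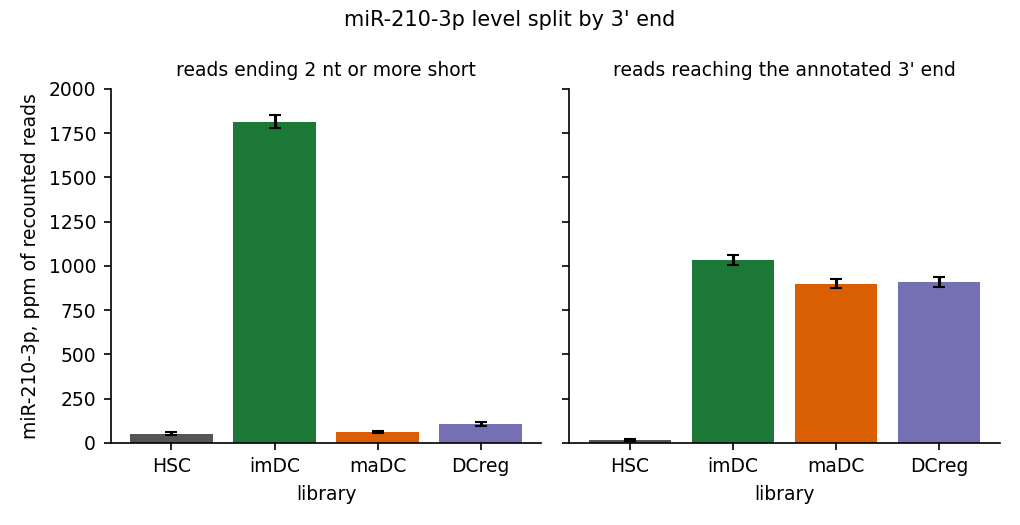
Level of miR-210-3p in ppm of all recounted miRNA reads for reads ending 2 nt or more short (left) and reads reaching the annotated 3' end (right), with exact 95% counting intervals. Short reads reach 1815 ppm in imDC and at most 106 ppm in the other 3 libraries, whereas reads with the annotated end lie between 899 and 1035 ppm in the 3 dendritic cell libraries.

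The share of short reads was compared with that of other miRNAs in the same libraries. Over the 116 miRNAs with at least 100 recounted reads in every library, the median share was 9.63% in HSC against 7.19% in imDC, 2.63% in maDC and 6.02% in DCreg. miR-210-3p had the 6th highest share of the 116 in HSC and the 8th highest in imDC, but only the 36th in maDC and the 39th in DCreg. Its share in maDC minus that in imDC was -56.1 percentage points, against a median of -1.74, which was the 4th lowest difference of the 116. For DCreg minus imDC it was -52.2 points, against a median of 0.539, and the 2nd lowest. For imDC minus HSC it was -12.9 points, against a median of -1.29, and the 7th lowest. These miRNAs share their libraries and are not replicates of one another.

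Read length and short ends were also taken over the whole libraries. Reads of 16 to 20 nt were 13.9% of all listed reads in HSC against 16.6% in imDC, 9.43% in maDC and 16.8% in DCreg. These shares include reads that were not placed on any miRNA, so they are not the same measure as short miRNA ends. Reads under 18 nt were 2.36%, 3.31%, 2.21% and 6.17% of listed reads in the same order. Over all recounted miRNA reads, short ends made up 7.95%, 9.59%, 2.79% and 4.66% in HSC, imDC, maDC and DCreg. In this pool of reads they were thus also more frequent in HSC and imDC than in maDC and DCreg. Taken miRNA by miRNA, DCreg was less clearly apart. Of the 116 miRNAs compared above, 88 had a lower share in maDC than in imDC, and 96 a lower share than in HSC. For DCreg these were 54 and 64. The part of library preparation or RNA quality in the different ends was not tested.

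**Figure D4:**
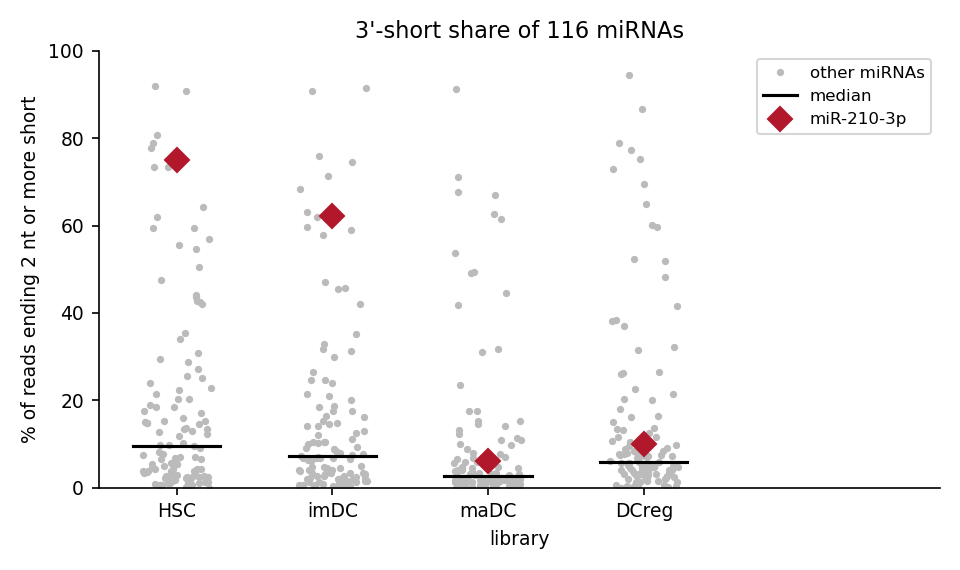
Percent of reads ending 2 nt or more before the annotated 3' end for each of 116 miRNAs (grey points, spread sideways for legibility), with the median as a bar and miR-210-3p as a diamond, in each library. miR-210-3p lies at 75.1% and 62.2% in HSC and imDC and at 6.08% and 10.0% in maDC and DCreg.

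Bases added to the 3' end followed the annotated end. Reads with untemplated 3' bases, which are not in the hairpin, made up 5.75% of miR-210-3p reads in HSC (interval 3.60 to 8.66), 11.0% in imDC (10.5 to 11.5), 23.4% in maDC (22.3 to 24.5) and 25.2% in DCreg (23.9 to 26.6). Such tails are known to be added by terminal nucleotidyl transferases after processing. Tails of A only were the commonest kind in each library, at 76.2%, 54.7%, 61.5% and 51.3% of tailed reads. Tails of T only, which stand for U in the RNA, were 9.52%, 9.07%, 8.01% and 12.6%. Most tails sat on reads that reached the annotated end or beyond, at 71.4% of tailed reads in HSC against 83.1% in imDC, 92.3% in maDC and 86.4% in DCreg. A T directly after the annotated end is also the next base of the hairpin, so the form plus T, at 1.17% of imDC and 6.29% of DCreg reads, was counted as templated and not as a tail.

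The 5' end, which sets the seed, was the annotated one in most reads, with starts 1 nt earlier more frequent in HSC and imDC. The annotated 5' end was used by 94.2% of miR-210-3p reads in HSC (interval 91.3 to 96.4), 94.9% in imDC (94.5 to 95.2), 98.1% in maDC (97.7 to 98.5) and 98.0% in DCreg (97.5 to 98.4). Reads starting 1 nt earlier made up 5.75% in HSC (3.60 to 8.66) against 4.68% in imDC (4.35 to 5.02), 1.54% in maDC (1.23 to 1.91) and 1.66% in DCreg (1.29 to 2.09). Among them, 21 of 21, 719 of 719, 83 of 84 and 67 of 69 had the A that precedes the mature sequence in the hairpin. Over all recounted miRNA reads such starts were rarer, at 0.400%, 0.838%, 0.352% and 0.247%. The shift moves the seed by 1 base, and no miRNA in the series table has that shifted seed.

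The other arm, miR-210-5p, was much scarcer and did not show the short ends of imDC. Its deposited values were 3.08 ppm in HSC against 24.8 in imDC, 24.8 in maDC and 20.9 in DCreg, from scores of 13, 130, 111 and 57. The 3 dendritic cell libraries were thus close to each other in this arm and HSC was lower, with 8 recounted reads against 83, 70 and 43. Short reads were 0 of 8 in HSC (exact interval up to 36.9%), 3 of 83 in imDC (3.61%, interval 0.752 to 10.2), 1 of 70 in maDC (1.43%, 0.0362 to 7.70) and 4 of 43 in DCreg (9.30%, 2.59 to 22.1). In imDC the same hairpin therefore gave 62.2% short reads on the 3p arm and 3.61% on the 5p arm. Reads ending 1 nt early were not counted as short. On the 5p arm they numbered 5, 24, 17 and 9 in HSC, imDC, maDC and DCreg. On the 3p arm, with far more reads, they numbered 2, 7, 0 and 3. The 3p arm held 97.9% of the reads of both arms in HSC (95.8 to 99.1), 99.5% in imDC (99.3 to 99.6), 98.7% in maDC (98.4 to 99.0) and 99.0% in DCreg (98.6 to 99.3). Over the hairpins with at least 100 reads the more abundant arm had a median share of 99.0%, 98.7%, 99.4% and 99.5%, so the strand use of miR-210 was near that of others.

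Other miRNAs that have been reported to rise in cell lines under low oxygen were read from a list of 20, of which all 20 were in the table. Like miR-210-3p, the list's names were chosen with earlier results of these data known. In imDC against HSC, 18 members reached 100 ppm in either library, of which 6 were at least 2-fold higher and 4 lower, beside 26.2% and 28.3% of all 187 miRNAs. The list's median log2 ratio was -0.18, against -0.12 over all 187, and the recount gave 7 higher and 0 lower of 16, beside 37.4% and 19% of 147. The 6 were miR-155-5p, a regulator of dendritic cell and lymphocyte activation (47.6 ppm in HSC and 2609 in imDC), miR-21-5p (19982 and 140653), miR-23a-3p (3826 and 11001), miR-24-3p (557 and 1621), miR-27a-3p (1672 and 5450) and miR-23b-3p (903 and 2145). miR-23a, miR-27a and miR-24 can be cut from 1 primary transcript, and so are not separate observations. The 4 lower members were miR-26a-5p, at 5750 ppm in HSC and 2501 in imDC, miR-26b-5p, at 11724 and 5102, miR-181c-5p and miR-195-5p. By recount miR-181c-5p, at 82.1 and 30.6 ppm, and miR-195-5p, at 38.3 and 5.88 ppm, were also more than 2-fold lower. Both stayed under 100 ppm, so they were not among the 16 tested by recount.

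In maDC and DCreg, as in imDC, the share of list members above HSC was near that of all miRNAs. In maDC against HSC, 3 of 18 tested members were at least 2-fold higher and 8 lower, beside 21.7% and 48.9% of all 180, and by recount 3 and 7 of 16, beside 21.4% and 47.3% of 131. In DCreg against HSC, 4 of 19 were higher and 10 lower, beside 19.4% and 56% of all 175. By recount these were 3 and 7 of 16, beside 17.6% and 55.7% of 131. miR-21-5p (71808 ppm in maDC and 61873 in DCreg), miR-24-3p (1151 and 1506) and miR-155-5p (1651 and 141) were higher in both, and miR-125b-5p, at 363 ppm, in DCreg. miR-103-3p and miR-107-3p, close relatives that sit in introns of pantothenate kinase genes, were under 2-fold between HSC and imDC by deposited values. They stood at 12934 and 20328 ppm, and at 3419 and 3296 ppm. By recount miR-103-3p, at 19683 and 40347 ppm, passed 2-fold. In maDC against imDC, 0 of 16 were at least 2-fold higher and 6 lower, beside 9.38% and 45% of all 160, and by recount 0 and 9 of 15, beside 1.52% and 59.1% of 132. Of the 6, miR-93-5p of the miR-17-92 paralogous clusters went from 4920 to 425 ppm, and miR-322-5p from 409 to 73.7 ppm. In DCreg against maDC, 3 of 16 were higher and 3 lower, beside 20.3% and 28.3% of all 138. In DCreg against imDC, 1 of 17 was higher and 12 lower, beside 16.1% and 56% of all 168. By recount these were 1 and 12 of 16, beside 12.4% and 65.7% of 137.

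The profile of miR-210-3p over the 4 libraries was set beside those of 178 other miRNAs with at least 100 ppm in 1 library and at least 100 recounted reads over the 4 libraries. The measure was the root mean square distance between log2 levels centred on their mean over the 4 libraries, which is a description with 4 points. The nearest was miR-146b-5p, which dampens Toll-like receptor signalling, at a distance of 0.55 on the log2 scale and levels of 6182, 89225, 67585 and 36546 ppm in HSC, imDC, maDC and DCreg. Next came miR-1956 at 0.67, miR-184-3p at 0.73, miR-34c-5p at 0.84 and miR-365-2-5p at 0.86. All 5 were lowest in HSC, but miR-1956, miR-184-3p and miR-34c-5p were highest in maDC and not in imDC, and miR-365-2-5p was nearly level in these (122 and 120 ppm). Recounted reads gave miR-146b-5p first again, at 0.51, and kept 3 of the 5, with miR-34a-5p and miR-21-5p in place of the other two.

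**Figure D5:**
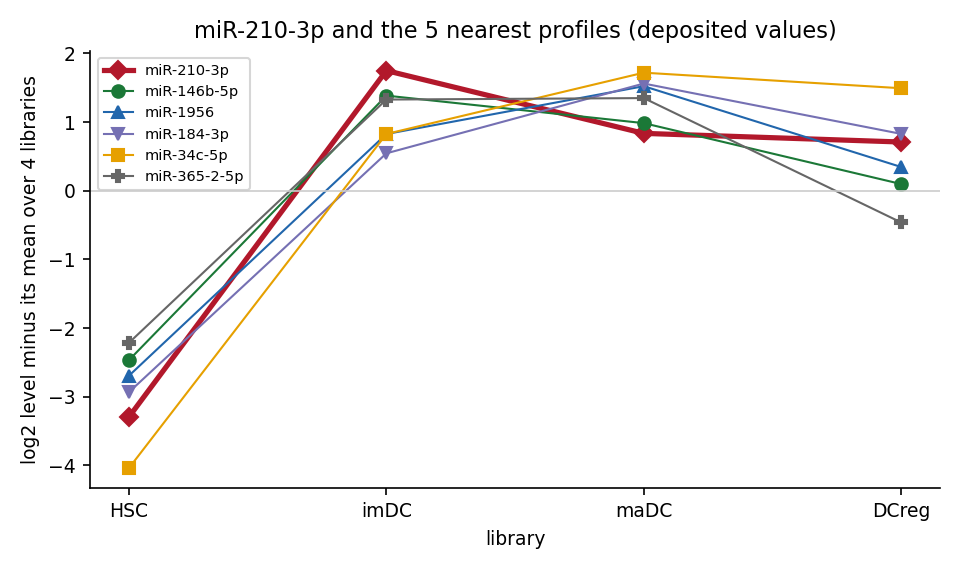
Log2 deposited level of miR-210-3p and its 5 nearest profiles, each minus its own mean over the 4 libraries; lines join the points of 1 miRNA and do not stand for a time course. All 6 are lowest in HSC, and miR-210-3p runs from -3.29 in HSC to 1.75 in imDC.

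The libraries also differed in marker miRNAs of cell types, whose part in the miR-210-3p levels was not tested. In bulk RNA fewer cells of a type and less RNA per cell cannot be told apart. The blood-lineage miRNAs miR-142-3p and miR-142-5p summed to 20092 ppm in HSC against 10374 in imDC, 13561 in maDC and 9471 in DCreg. Most of this was miR-142-5p, and miR-142-3p alone stood at 1133, 861, 366 and 94.6 ppm in the same order. The myeloid miR-223-3p stood at 3438 ppm in HSC against 2264 in imDC, 635 in maDC and 669 in DCreg. The activation markers miR-155-5p and miR-147-3p summed to 75.7 ppm in HSC against 3354 in imDC, 2240 in maDC and 223 in DCreg. They were thus highest in imDC, for which no LPS is stated. The 4 erythroid markers summed to 15231 ppm in HSC and to between 1.56 and 19.4 in the others, with miR-144-5p at 0 in maDC and DCreg. The 3 muscle markers summed to 8676 ppm in HSC and to between 40.6 and 259 elsewhere. The 5 stromal markers summed to 1083 ppm in HSC against 61.3 in imDC, 177 in maDC and 255 in DCreg. The lymphoid marker miR-150-5p stood at 914 ppm in HSC and at 17.1 ppm or less elsewhere, and the 2 endothelial markers summed to 121 ppm in HSC and to 8.00 or less elsewhere. The HSC library, the lowest in miR-210-3p, thus held the most marker miRNA of each of these kinds except the activation markers.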

How the data were processed

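Small RNA was measured in 4 libraries, 1 per cell type. Per the labels, inserts of 18 to 30 nt were amplified for 12 cycles, reads matching other RNA classes were removed and the rest were compared with miRBase release 19. The authors deposited a score per mature miRNA and hairpin, whole numbers that per the file headers are normalized counts; the method, aligner and build were not given in the sources used here. Columns sum to between 2725948 (DCreg) and 5251069 (imDC). As these are not raw reads, no count model was used, and scores were summed per name and scaled to ppm. The authors also deposited unique sequences with copy numbers, read counts of 4904897 to 6572858 per library. These were recounted with Python 3.11.15 by exact match to the listed mature sequences: at least 16 matched nt, a 5' end within 2 nt, at most 5 unmatched 3' bases, the longest match taken and ties divided. This placed 80.2% to 84.0% of reads. The rule was tested on simulated data.

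A miRNA was called different at 2-fold or more (pseudocount 0.5) with 100 ppm in either library. Ratios of reads have exact conditional 95% intervals (scipy 1.17.1). Named miRNAs are the 2 arms, the low-oxygen list at 100 ppm, the 5 nearest profiles and rank neighbours. The members and lists were chosen with earlier results of these data known. With 1 library per group there is no test. Alternatives covered the scaling, the pseudocount and the matching rule of the recount.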

Additional observations from a re-analysis of the deposited data

How the results depend on the processing

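Log2 ratios of miR-210-3p are given here in the order imDC against HSC, maDC against imDC, DCreg against maDC, DCreg against imDC, maDC against HSC and DCreg against HSC. As reported they were 5.04, -0.91, -0.13, -1.04, 4.13 and 4.00. With all listed reads as the total they were 5.29, -1.15, -0.42, -1.57, 4.14 and 3.73. The trimmed mean of M-values gave 5.25, -0.39, -0.55, -0.94, 4.86 and 4.31. Median of ratios gave 4.95, -0.21, -0.11, -0.32, 4.74 and 4.63. Leaving out the 5 most abundant miRNAs of each library gave 5.18, -0.77, -0.0026, -0.77, 4.41 and 4.41. Recounted reads gave 5.38, -1.57, 0.10, -1.46, 3.81 and 3.91. With the annotated 5' end only the recount gave 5.39, -1.53, 0.16, -1.37, 3.86 and 4.02. With no unmatched 3' base it gave 5.37, -1.89, 0.010, -1.88, 3.48 and 3.49. Reads of 18 to 30 nt gave 5.40, -1.31, 0.089, -1.22, 4.09 and 4.18. With 1 substitution allowed they were 5.37, -1.54, 0.10, -1.44, 3.83 and 3.93. Reads reaching the annotated 3' end, an alternative chosen after seeing the data, gave 6.05, -0.20, 0.014, -0.19, 5.85 and 5.87. With such reads as the total they were 6.05, -0.37, 0.14, -0.23, 5.68 and 5.82. A pseudocount of 0 or 5 gave nearly the values reported, such as 5.04 and 5.03 for imDC against HSC. Of 78 alternative values, 71 kept their sign, and the 7 that did not were all of DCreg against maDC. The rise over HSC stayed above 2-fold in all 13 alternatives of each of the 3 comparisons, while maDC against imDC was past 2-fold in 6 of 13 and DCreg against imDC in 8 of 13. The cause was not tested.

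Scaling moved the median of tested miRNAs by between -0.53 and 0.73. It adds the same amount to every log2 ratio of a comparison, so the distance of miR-210-3p from that median cannot change. This distance was 5.16, -0.03, 0.22, 0.21, 5.09 and 5.44 and is no check of stability. Of miRNAs at least 2-fold different, those lower in imDC than in HSC were 53 of 187 as reported and 28 of 147 by recount. Those higher in maDC than in imDC were 15 of 160 as reported and 2 of 132 by recount. They were 8 with all listed reads, 26 with the trimmed mean and 30 with median of ratios. Those lower in maDC were 72 as reported, 47 with the trimmed mean and 37 with median of ratios. Those higher in DCreg than in imDC were 27 of 168 as reported and 17 of 137 by recount. The recount tested fewer miRNAs, so its counts are not on the same base. Among reads of 18 to 30 nt, short miR-210-3p reads made up 69.5% in HSC against 54.4% in imDC, 5.42% in maDC and 8.21% in DCreg. Without unmatched 3' bases the 3p arm held 99.6% in imDC and 99.4% in DCreg. No paired analysis was possible because there is 1 library per cell type. Depth limits the HSC values most, which rest on 365 reads of miR-210-3p and 8 of miR-210-5p.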

Other observations

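Counting miR-210-3p, 7 of the 116 miRNAs compared had a share of short reads that was lower in maDC than in imDC by 40 percentage points or more. All 7 were 3p arms, as were 51 of the 116, and they were named after their values were seen. For miR-29b-3p, a regulator of collagen genes, short reads made up 76.0% in imDC and 7.97% in maDC. Its total was 1466 ppm of recounted reads in imDC and 513 in maDC, whereas its reads with the annotated 3' end stood at 240 and 390 ppm, the opposite order. For miR-147-3p, which is induced by Toll-like receptor ligands in macrophages, the total was 754 and 312 ppm and the reads with the annotated end 257 and 278 ppm. miR-101b-3p went from 6444 to 2021 ppm in total and from 2049 to 1627 ppm in reads with the annotated end.

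Like miR-101b-3p and miR-210-3p, the remaining members fell both in total and in reads with the annotated end. miR-27a-3p went from 7820 to 684 ppm in total and from 568 to 52.5 ppm in reads with the annotated end. miR-27b-3p went from 8533 to 435 and from 573 to 166 ppm, and miR-148b-3p from 728 to 119 and from 260 to 88.9 ppm. Over all 132 miRNAs tested in the recount, 78 were at least 2-fold lower in maDC than in imDC, and 64 of these were also lower by 2-fold in reads with the annotated end. miR-210-3p was not among these 64. With 1 library per cell type these differences have no replicate check.

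Reads of miR-210-3p with 1 substitution in their first 16 bases were left out of the counts above. They numbered 23 in HSC against 996 in imDC, 336 in maDC and 276 in DCreg, or 5.93%, 6.09%, 5.82% and 6.22% of exact and substituted reads together. Over all miRNAs this share was 5.02%, 5.54%, 3.48% and 3.97%. The commonest substitutions, with positions counted from 1 at the 5' end and the annotated base first, were T10A in HSC with 4 reads, A14T in imDC with 119, T4G in maDC with 67 and T10G in DCreg with 74.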
